A study of Mus musculus with 9 samples.

Results

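The 54 genes described here encode the core machinery that copies DNA and the enzymes that supply its nucleotides, and they were taken from the gene table by symbol. All 54 were found, once each, among the 54532 genes of the table, and 50 of them, whose mean over 9 libraries reached 0.5 FPKM, were tested. FPKM is the number of sequenced fragments scaled by gene length and by a value for each library, as the authors computed it. RNA was sequenced from right ventricular myocardium, with 3 libraries per group. The mice were wild-type C57BL/6, and their label reads postnatal day 7. CsA mice had a fistula operation, which adds a volume load to the heart, and injections of cyclosporin A, an inhibitor of the phosphatase calcineurin. VO mice had the fistula operation without the drug, and Sham mice had the control operation. Both CsA and VO libraries therefore carry the fistula, and no group with the drug alone was analysed here. The labels give neither the dose nor the age at harvest, and they do not state whether the libraries come from different mice, so p-values measure how far these samples spread, possibly for technical reasons.

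Cells copy their genome once per division. In G1 the origin recognition complex, Cdc6 and Cdt1 load the ring of Mcm2 to Mcm7 onto origins, and in S phase Cdc45 and the GINS complex turn that ring into the active helicase. Primase and polymerase alpha start each strand, the loader RFC places the PCNA clamp, and polymerases delta and epsilon extend the strands. Most of these genes are induced by E2F transcription factors as cells enter S phase. Heart muscle cells of newborn mice leave the cell cycle in the first weeks of life, while other cell types of the ventricle can go on dividing. In whole tissue, fewer cycling cells and less of each transcript per cell cannot be told apart.

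The libraries held between 12046288 and 15986747 fragments assigned to genes, and the 54 members together took 0.0587% to 0.155% of them. Ventricular identity was clear in every library: the ventricular light chain Myl2 lay between 510.7 and 1506 FPKM. Libraries stood apart in other ways. The atrial light chain Myl7 was at 0.959 to 68.3 FPKM in CsA, 3.02 to 6.06 FPKM in VO and 235, 1.10 and 269.7 FPKM in Sham 1 to 3. In VO 3, mitochondrially encoded genes took 11.01% of fragments, against 22.2% to 26.3% elsewhere, and 17003 genes were above 0, against 19619 to 20479. The hemoglobin gene Hbb-bs was at 1304 FPKM in VO 3 and at 391.1 to 593.2 FPKM in the other 8 libraries. Sham 2 alone had fragments of the Y-linked gene Ddx3y (18.6 FPKM), and the groups were not matched for sex.

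The summed level of the 54 members was 257.8, 178.3 and 327.8 FPKM in CsA 1 to 3, 293.9, 405.7 and 340.2 FPKM in VO 1 to 3, and 182.3, 250.5 and 172.8 FPKM in Sham 1 to 3. VO lay above Sham in every library, while CsA 2 sat at the Sham level and CsA 3 within the VO range. A list of 14 mitosis markers outside the member list, among them Mki67, showed a like spread. Their summed level was 62.1, 19.7 and 98.3 FPKM in CsA 1 to 3, 72.1, 106.9 and 63.6 FPKM in VO 1 to 3, and 32.8, 59.5 and 17.0 FPKM in Sham 1 to 3. In both lists VO 2 was the highest of all libraries, and CsA 2 and Sham 2 were the library farthest from the others of their group.

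**Figure D1:**
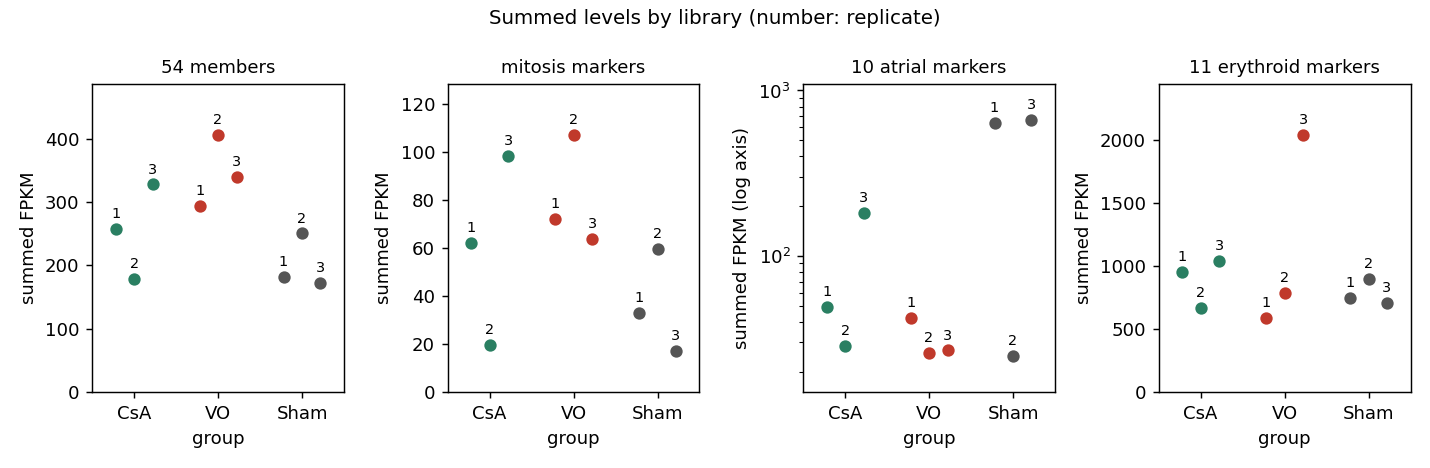
Summed FPKM by library and group for the 54 members, 14 mitosis markers, 10 atrial markers (log axis) and 11 erythroid markers, with one point per library and its replicate number above it. For the members, VO libraries lay between 293.9 and 405.7 FPKM and Sham libraries between 172.8 and 250.5 FPKM; atrial markers exceeded 600 FPKM in Sham 1 and Sham 3, and erythroid markers peaked in VO 3.

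The promoters of these genes were compared by sequence. RefSeq promoter windows on GRCm38.p6, which run from upstream of a RefSeq start site to just past it, were matched by symbol to 44 of the 54 members. A window can lie inside the gene as its coordinates are given here, as that of Pole4 does. The E2F motif was searched as TTTCCCGC, TTTCGCGC, TTTGCCGC and TTTGGCGC on both strands. It was found in 16 of the 44 members (36.4%), against 704 of all 27025 genes with a window (2.6%) and 454 of 9585 tested genes with one (4.74%). The CCAAT box, searched as CCAAT, was found in 56.8% of the members and 42.9% of tested genes, and the CHR element, searched as TTTGAA and TTCGAA, in 15.9% and 16.1%. The windows below are shown because they include 3 helicase subunits with 2 or more E2F matches each, and 2 members that rose in VO, one with a match (Pole4) and one without (Rfc4). Capitals mark the E2F matches, and in Mcm5 and Mcm6 a forward and a reverse match overlap in one run of 12 letters.
Mcm3 (chr1:20820263-20820562, strand minus): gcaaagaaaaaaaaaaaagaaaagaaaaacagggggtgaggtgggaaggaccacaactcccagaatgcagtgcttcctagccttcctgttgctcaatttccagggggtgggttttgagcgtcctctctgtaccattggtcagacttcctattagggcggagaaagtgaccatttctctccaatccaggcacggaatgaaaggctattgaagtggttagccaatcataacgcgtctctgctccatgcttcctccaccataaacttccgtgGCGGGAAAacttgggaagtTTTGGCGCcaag
Mcm5 (chr8:75109259-75109558, strand plus): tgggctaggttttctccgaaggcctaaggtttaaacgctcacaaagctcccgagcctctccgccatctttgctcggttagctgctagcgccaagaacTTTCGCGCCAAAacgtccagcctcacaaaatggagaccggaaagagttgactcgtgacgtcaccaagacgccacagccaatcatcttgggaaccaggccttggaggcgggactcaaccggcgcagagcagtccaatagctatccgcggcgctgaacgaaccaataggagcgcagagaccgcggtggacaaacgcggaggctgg
Mcm6 (chr1:128359656-128359955, strand minus): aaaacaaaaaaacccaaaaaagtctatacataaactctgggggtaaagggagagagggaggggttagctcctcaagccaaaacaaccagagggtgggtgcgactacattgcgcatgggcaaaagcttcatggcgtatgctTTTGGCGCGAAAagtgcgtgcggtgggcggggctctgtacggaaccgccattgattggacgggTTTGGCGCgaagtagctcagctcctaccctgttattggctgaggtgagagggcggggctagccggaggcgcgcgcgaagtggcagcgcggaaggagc
Pole4 (chr6:82652816-82653115, strand minus): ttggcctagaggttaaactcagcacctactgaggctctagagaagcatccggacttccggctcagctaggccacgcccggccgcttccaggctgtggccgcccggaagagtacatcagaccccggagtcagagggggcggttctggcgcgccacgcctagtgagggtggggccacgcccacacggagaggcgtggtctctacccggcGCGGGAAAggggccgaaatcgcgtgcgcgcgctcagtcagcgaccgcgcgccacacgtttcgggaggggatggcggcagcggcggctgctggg
Rfc4 (chr16:23127681-23127980, strand minus): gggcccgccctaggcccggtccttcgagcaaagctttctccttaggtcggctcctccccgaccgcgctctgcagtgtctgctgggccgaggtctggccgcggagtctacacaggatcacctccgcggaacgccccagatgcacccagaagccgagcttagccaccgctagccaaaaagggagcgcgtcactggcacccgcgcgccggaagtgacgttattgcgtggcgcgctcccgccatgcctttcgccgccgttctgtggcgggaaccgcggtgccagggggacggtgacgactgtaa
Among tested members with a window, the 15 with an E2F match had a median log2 fold change of 0.55 in VO against Sham, and the 25 without a match had 0.58. A match is a match of letters and not a measured binding site. The search required every letter, so windows counted as without a match can hold a near match. That of Rfc4 holds gcgggaac, which differs in its last letter from GCGGGAAA, the reverse strand of TTTCCCGC.

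VO was set against Sham to ask which of these transcripts the fistula operation alters. In total 5 members rose in VO: the clamp loader subunit Rfc4, the fork protection protein Tipin, the polymerase epsilon subunit Pole4 and the origin recognition subunits Orc4 and Orc6. Their fitted folds on the FPKM + 1 scale lay between 1.75 for Orc6 and 2.91 for Rfc4. The other 45 tested members did not pass the test. The 5 calls of 50 (10%) stand against 2.04% of all 13477 tested genes called higher in VO, and 0 members were called lower, against 2.72% (4.76% in either direction). The test was limma's on log2(FPKM + 1) over all tested genes, two-sided, with an adjusted p under 0.05. Of the 50 tested members, 49 had a log2 fold change above 0, against 50.4% of all tested genes, and 1 was below 0, against 49.6%. Their median was 0.55, against 0.00 for all tested genes. Every VO library exceeded every Sham library for 17 members, against 16.2% of all tested genes, and the reverse held for 1, against 17.0%. At an unadjusted p under 0.05, 19 members were higher, against 14.0%, and 1 was lower, against 15.3%. The members were listed with earlier results of these data known, so these counts describe the list and do not test it.

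Rfc4, a small subunit of the complex that opens the PCNA ring and loads it onto DNA, stood at 13.1, 14.01 and 13.8 FPKM in VO 1 to 3 and at 3.49, 5.07 and 3.62 FPKM in Sham 1 to 3. The groups were far apart and the VO libraries close together. The log2 fold change was 1.54 ± 0.239 (SE; limma adjusted p = 0.0382), from 277 to 364 fragments per library in VO and 72 to 108 in Sham. Rfc4 (ENSMUSG00000022881, chromosome 16, 23113943 to 23127737 in GRCm38) shares 194 of its 1533 exonic bases with the other strand's Eif4a2, and the sources used here do not say whether counting used strand. Eif4a2 was at 57.5 to 91.7 FPKM in VO and 52.0 to 55.0 FPKM in Sham, and its log2 fold change of 0.44 did not pass the test (limma adjusted p = 0.156). The part of shared reads in the Rfc4 difference was not tested.

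Tipin, which with Timeless steadies the replication fork, stood at 11.3, 16.3 and 14.4 FPKM in VO and 6.60, 6.62 and 4.17 FPKM in Sham. Every VO library was above every Sham library, and the log2 fold change was 1.15 ± 0.214 (limma adjusted p = 0.0382). Its partner Timeless stood at 1.95, 2.04 and 2.56 FPKM in VO and 1.75, 1.66 and 1.67 FPKM in Sham, also without overlap. The Timeless fold of 0.24 ± 0.156 did not pass. Pole4, a histone-fold subunit of the leading-strand polymerase epsilon, stood at 28.04, 25.7 and 27.6 FPKM in VO and 9.62, 15.6 and 9.20 FPKM in Sham (log2 1.21 ± 0.242, limma adjusted p = 0.0396). Its libraries did not overlap between the groups, and Sham 2 was the highest of Sham. In GRCm38 Tipin (ENSMUSG00000032397) lies on chromosome 9 from 64281581 to 64305424 and Pole4 (ENSMUSG00000030042) lies on chromosome 6 from 82618992 to 82705365.

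Of the 5 tested subunits of the origin recognition complex, 2 rose. Orc4 stood at 10.3, 8.701 and 6.67 FPKM in VO and 3.35, 4.81 and 4.56 FPKM in Sham (log2 0.86 ± 0.195, limma adjusted p = 0.0425). Orc6 stood at 5.77, 9.73 and 8.69 FPKM in VO and 4.05, 3.90 and 4.34 FPKM in Sham (log2 0.80 ± 0.187, limma adjusted p = 0.0456). Neither gene overlapped between the groups, and the 3 VO libraries were more widely spread than the 3 Sham libraries in both. Orc2, Orc3 and Orc5 had log2 fold changes of 0.31, 0.28 and 0.31 and did not pass. In GRCm38 Orc4 (ENSMUSG00000026761) lies on chromosome 2 from 48902824 to 48950277 and Orc6 (ENSMUSG00000031697) lies on chromosome 8 from 85299632 to 85308278. The Orc4 and Orc6 genes share 582 of 7458 and 171 of 2469 exonic bases with genes of the other strand.

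**Figure D2:**
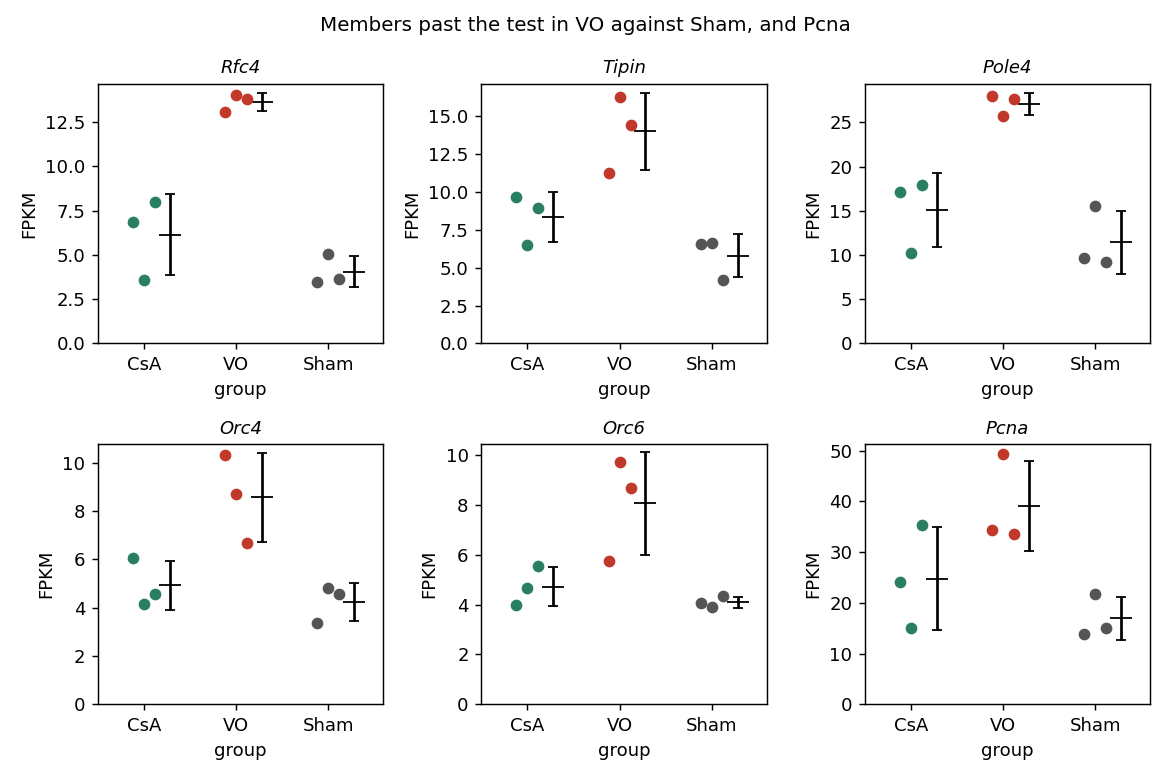
FPKM in each library (points) with mean and SD (bars) for the 5 members that rose in VO against Sham, and for Pcna, which did not pass. VO lies above Sham without overlap in all 6 panels, as in 17 of 50 tested members and 16.2% of all tested genes. In the first 5 panels CsA lies below VO without overlap. This held for 6 of 50 tested members and 10.3% of all tested genes, and no member passed in CsA against VO. Both comparisons use the same VO libraries.

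These calls depend on which libraries entered the fit. The count of 5 fell to 0 without Sham 1, Sham 3, VO 1, CsA 1 or CsA 3, to 2 without Sham 2 and to 3 without VO 2. It was 6 without VO 3 and 7 without CsA 2. It was also 0 without the 3 libraries high in Myl7 (Sham 1, Sham 3 and CsA 3), which leaves 1 Sham library, assumed to vary like the others; there 46 of 50 members were above 0 and the median log2 fold change was 0.25. The log2 fold changes there were 1.27 for Rfc4, 0.96 for Tipin, 0.76 for Pole4, 0.70 for Orc4 and 0.86 for Orc6. With the replicate number as a block, a term for libraries of the same number, the count was 0. The fold changes of the 5 genes with the block, or without a CsA library, were those of the fit on all libraries. The estimated spread differed, and with it the unadjusted and adjusted p. At an unadjusted p under 0.05 in limma, 20 members passed in the fit on all libraries and 16 with the block. Without CsA 1, CsA 2 and CsA 3 in turn, 16, 23 and 24 did.

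The helicase subunits had a median log2 fold change of 0.89 on the log2(FPKM + 1) scale, with 0 of 6 past the test. Mcm3 stood at 7.12, 12.1 and 6.15 FPKM in VO and 2.38, 5.37 and 2.55 FPKM in Sham (log2 1.11 ± 0.424, limma adjusted p = 0.122). Mcm5 stood at 3.90, 8.58 and 4.56 FPKM in VO and 1.72, 4.16 and 1.41 FPKM in Sham (0.98 ± 0.474, adjusted p = 0.2), and Mcm2 at 3.52, 6.65 and 2.99 FPKM in VO and 1.61, 3.73 and 1.13 FPKM in Sham (0.80 ± 0.416, adjusted p = 0.231). In all 3 genes VO 2 was the highest library and Sham 2 the highest Sham library, and in Mcm2 and Mcm5 the groups overlapped. Mcm4, Mcm6 and Mcm7 had log2 fold changes of 0.70, 0.99 and 0.47. By mean FPKM, Mcm6 was the most abundant subunit and Mcm2 the least in each group. Mcm6 averaged 10.8 ± 3.90 FPKM across VO and 4.90 ± 1.84 FPKM across Sham, and Mcm2 4.39 ± 1.98 and 2.16 ± 1.38 FPKM (SD, n = 3). The order of the other subunits differed by group. In VO 1 Mcm4 (7.71 FPKM) lay above Mcm6 (7.195 FPKM), so Mcm6 did not lead in every library.

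Cdc6, Cdt1 and Gmnn, which act on helicase loading, and the helicase activators Cdc45 and Gins1 to Gins4 gave positive folds without passing. Cdc6, the loading ATPase, stood at 0.984, 1.87 and 1.09 FPKM in VO and 0.302, 0.371 and 0.28 FPKM in Sham, with no overlap (log2 0.79 ± 0.235, limma adjusted p = 0.0699). Cdt1, its partner, was at 1.72, 4.05 and 2.86 FPKM in VO and 1.09, 2.47 and 1.45 FPKM in Sham, with overlap (0.53 ± 0.355, adjusted p = 0.351). Gmnn, geminin, which inhibits Cdt1 outside G1, was at 14.9, 17.6 and 27.5 FPKM in VO and 11.3, 16.4 and 9.16 FPKM in Sham (0.65 ± 0.265, adjusted p = 0.14). Of helicase activators, Cdc45 was at 1.56, 3.58 and 2.3 FPKM in VO and 1.02, 1.87 and 0.9904 FPKM in Sham, with overlap (0.58 ± 0.285, adjusted p = 0.205), and the GINS subunits Gins1 to Gins4 had 0.35, 0.54, 0.19 and 0.24.

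Pcna, the sliding clamp, was the most abundant member and came close to the threshold. It stood at 34.4, 49.4 and 33.6 FPKM in VO and 13.9, 21.7 and 15.1 FPKM in Sham (log2 1.16 ± 0.299, limma adjusted p = 0.0532). Its groups did not overlap, and it passed in 5 alternatives, such as with voom on recovered fragments (adjusted p = 0.0402) and without VO 3 (0.0446). Pcna has 2 named pseudogenes in the table, which can share its reads: Pcna-ps2 was at 0.0643 to 0.678 FPKM and Pcna-ps1 was listed at 0 in every library. The loader subunits other than Rfc4 were flatter, with log2 fold changes of 0.10, 0.16, 0.18 and 0.56 for Rfc1, Rfc2, Rfc3 and Rfc5.

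Primase and polymerase alpha start each new fragment. The primase catalytic subunit Prim1 stood at 2.498, 3.55 and 2.74 FPKM in VO and 0.673, 1.41 and 0.379 FPKM in Sham, with no overlap (log2 1.14 ± 0.314, limma adjusted p = 0.0599). Prim2, Pola1 and Pola2 had log2 fold changes of 0.51, 0.58 and 0.13. Among the subunits of polymerases delta and epsilon other than Pole4, 5 of 6 lay between 0.20 and 0.61. Pold2, the small accessory subunit of polymerase delta, was the 1 tested member below 0. It stood at 4.50, 6.46 and 7.01 FPKM in VO and 8.71, 8.23 and 8.63 FPKM in Sham, with no overlap, and did not pass (log2 -0.46 ± 0.18, limma adjusted p = 0.126). With the GC trend of every library removed, Pold2, with a GC of 58.7%, was at -0.10 ± 0.129, and 5 tested members were below 0.

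The single-strand binding protein RPA coats unwound DNA. Rpa3 stood at 10.8, 14.3 and 10.01 FPKM in VO and 7.06, 7.85 and 7.404 FPKM in Sham (log2 0.58 ± 0.208, limma adjusted p = 0.108). Rpa2 was at 4.44, 6.97 and 7.58 FPKM in VO and 3.802, 4.81 and 4.05 FPKM in Sham, with overlap (0.47 ± 0.193, adjusted p = 0.145), and Rpa1 had a log2 fold change of 0.23 ± 0.167. Of the enzymes that remove RNA and seal nicks, Lig1, the ligase that joins fragments of the lagging strand, had 0.78 ± 0.403. The ribonuclease H2 subunit Rnaseh2a had 0.27 ± 0.213, and its partner Rnaseh2b was at 2.04, 2.48 and 3.51 FPKM in VO and 1.55, 1.97 and 1.53 FPKM in Sham, with no overlap (0.44 ± 0.183, adjusted p = 0.146). Chaf1b, a subunit of the complex that places histones behind the fork, was at 0.63, 1.79 and 1.18 FPKM in VO and 0.41, 0.645 and 0.28 FPKM in Sham (0.58 ± 0.273, adjusted p = 0.191).

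Nucleotide supply genes had a median log2 fold change of 0.63, with 0 of 5 past the test. Tyms, which makes thymidylate, stood at 1.45, 2.65 and 2.21 FPKM in VO and 0.54, 0.898 and 0.418 FPKM in Sham, with no overlap (0.93 ± 0.28, limma adjusted p = 0.0715). Rrm2, the regulated subunit of ribonucleotide reductase, was at 10.96, 18.6 and 7.26 FPKM in VO and 4.03, 12.8 and 2.98 FPKM in Sham. Sham 2 exceeded 2 of the VO libraries, and the fold of 0.93 had an SE of 0.601 (adjusted p = 0.328). Rrm1, the large subunit, was at 6.17, 8.32 and 3.06 FPKM in VO and 2.95, 4.65 and 2.25 FPKM in Sham (0.63 ± 0.379, adjusted p = 0.291). The salvage enzyme Tk1 was at 1.47, 3.62 and 2.63 FPKM in VO and 1.03, 1.84 and 1.01 FPKM in Sham (0.61 ± 0.308, adjusted p = 0.215), and both genes overlapped between the groups. Dut, which removes dUTP, had 0.34 ± 0.295. The 95% interval of the Rrm2 fold ran from -0.41 to 2.28 on the log2 scale, so these 3 libraries a group do not fix its size.

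**Figure D3:**
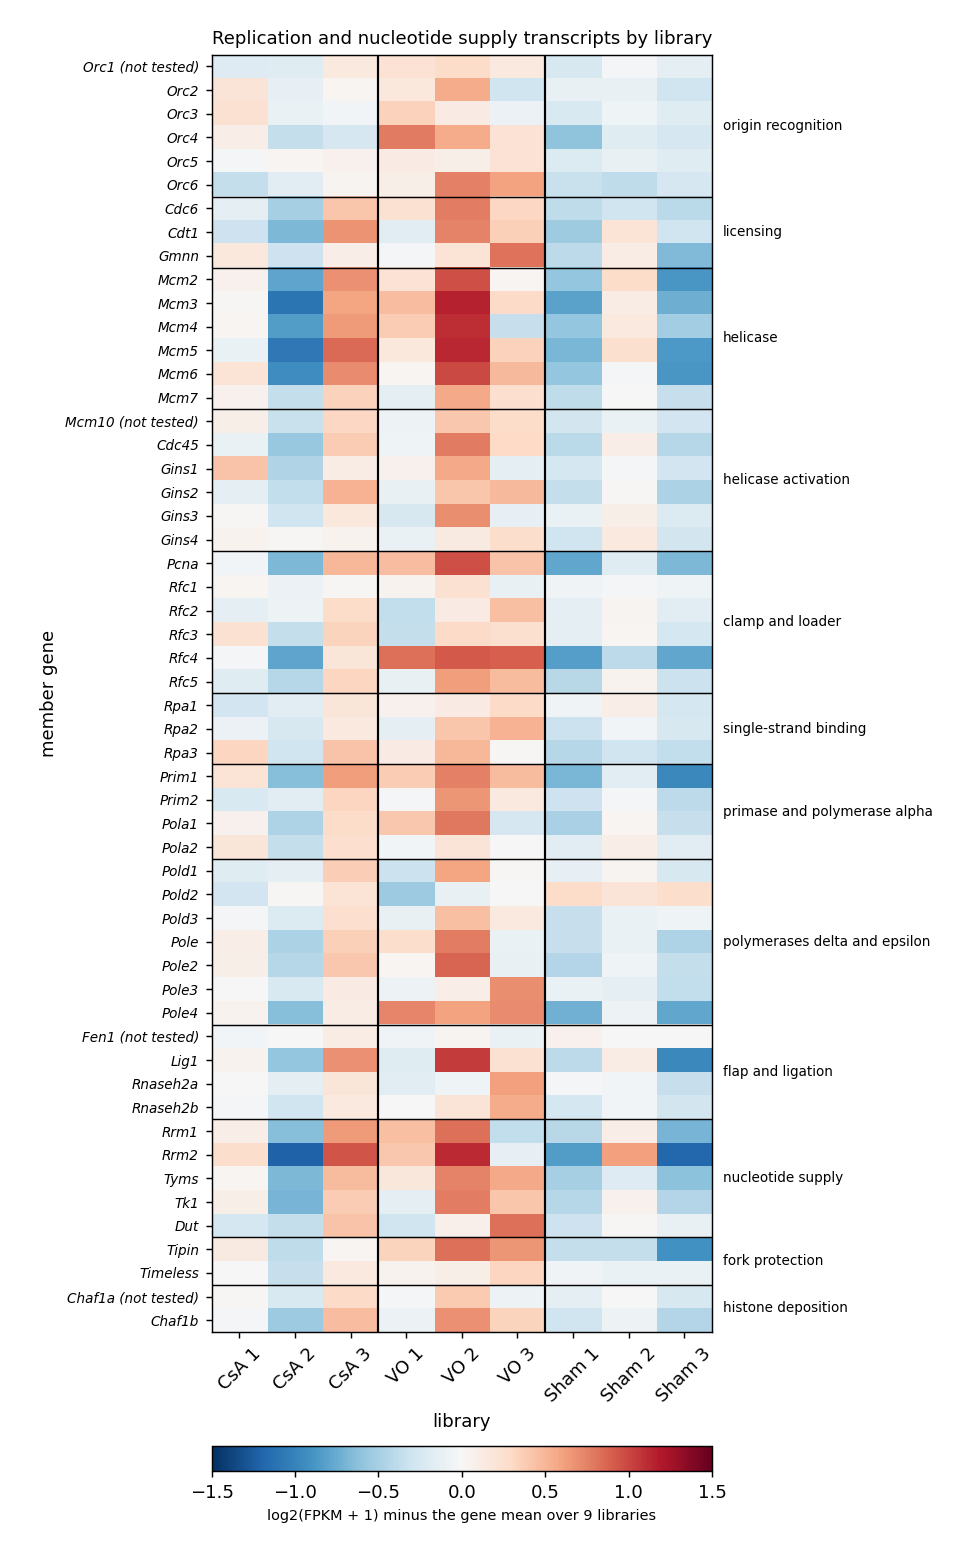
Each member by library, as log2(FPKM + 1) minus the gene's mean over the 9 libraries (colour scale from -1.5 to 1.5), in role groups, with the 4 members too low to test marked. VO 2 and CsA 3 are above the gene mean for most members, and CsA 2, Sham 1 and Sham 3 below it.

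Fold changes of single members differed with and without the GC trend of each library. Across all tested genes, fold change in VO against Sham and GC content of the longest transcript had a Spearman correlation of -0.53, and across the 50 members of -0.22, given as descriptions since genes share libraries. The median GC was 48.2% for the members and 49.4% for all tested genes. With the GC trend of every library removed, limma called 0 members and 0 of all genes in VO against Sham (22 members and 2852 genes at an unadjusted p under 0.05), while the members' median log2 fold change was 0.54 and 45 of 50 were above 0. Rfc4 was then at 1.31 ± 0.227 (limma adjusted p = 0.0719), Pole4 at 0.97 ± 0.221, Tipin at 0.84 ± 0.234 and Orc6 at 0.64 ± 0.211. Timeless, with a GC of 54.7%, was at 0.44 ± 0.153 with the correction and 0.24 ± 0.156 without it. Orc4, with a GC of 36.8%, was at 0.44 ± 0.127, Rpa3, with 34.2%, at 0.09 ± 0.219, and Orc5, with 38.2%, at -0.07 ± 0.167. Pold1, with a GC of 61.0%, was at 0.67 ± 0.223 with the correction and 0.20 ± 0.241 without it.

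Cell type markers were set against the same contrast, and the lists differed in direction and in overlap between the groups. All 9 tested smooth muscle and pericyte markers had a log2 fold change below 0 in VO against Sham, with a median of -0.53, and the smooth muscle myosin Myh11 passed. Their summed level was 620.9 to 753.4 FPKM in VO and 786.0 to 1104 FPKM in Sham, with no overlap. Of 12 ventricular markers 9 were below 0, with a median of -0.44 and 0 past the test, and they summed to 10692 to 18165 FPKM in VO and 14160 to 17621 FPKM in Sham. Of 10 macrophage markers 7 were below 0, with a median of -0.36, while Fcgr1 passed as higher, and they summed to 92.2 to 182.8 FPKM in VO and 151.5 to 182.3 FPKM in Sham. All 10 atrial markers were below 0, 1 of them past the test, with a summed level of 25.9 to 42.3 FPKM in VO and 24.99 to 665.6 FPKM in Sham. Of the 7 tested erythroid markers 6 were above 0, with a summed level of 593.0 to 2041 FPKM in VO and 710.5 to 896.8 FPKM in Sham. Of 12 endothelial markers 7 were below 0, with a median of -0.28, and Tie1 and Plvap fell. The 12 summed to 395.1 to 841.2 FPKM in VO and 515.4 to 561.3 FPKM in Sham, and the 10 fibroblast markers, of which Lum rose and 6 were above 0, to 1102 to 1235 FPKM in VO and 899.8 to 1324 FPKM in Sham. Fragments of Myl7 and Hbb-bs were found in every library, and their log2 fold changes were -3.24 and 0.51. Of the mitosis markers 13 of 14 were above 0, with a median of 0.99 and 0 past the test. Without the atrial-rich libraries, as given above, the members' median was 0.25, with Sham 2 as the only Sham library. Sham 2 was the highest Sham library for 44 of 50 tested members and alone had fragments of the Y-linked gene Ddx3y. The part of these traits in the value of 0.25 was not tested. Without VO 3 the members' median was 0.55. The part of other cell types in the members' difference was not tested.

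**Figure D4:**
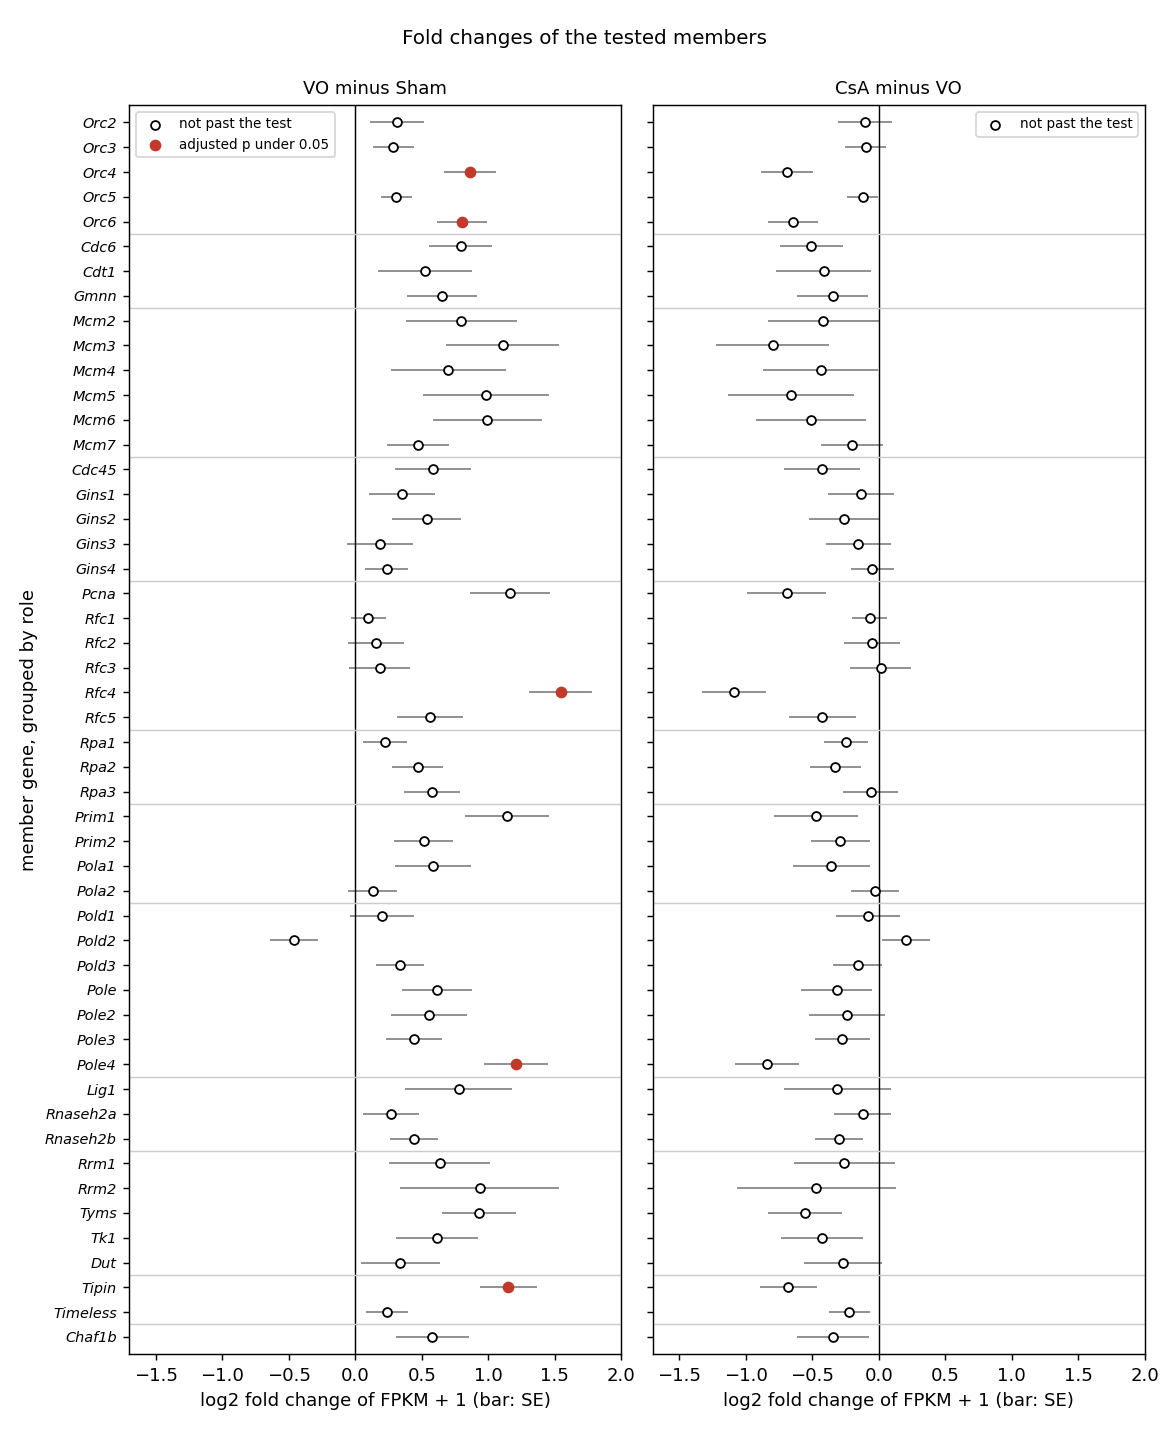
Log2 fold change with SE for the 50 tested members, in role groups, for VO minus Sham (left) and CsA minus VO (right), with members past the test filled. All but Pold2 lie above 0 on the left and all but Pold2 and Rfc3 below 0 on the right, where none passed; both panels use the same VO libraries.

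The comparison of CsA with VO addressed the effect of cyclosporin A on top of the fistula. In limma 0 of 50 tested members passed, against 0.0% of all tested genes, and voom on recovered fragments gave 0 as well. At an unadjusted p under 0.05, 6 members were lower and 0 higher, against 7.82% and 8.64% of all tested genes. These 6 were Rfc4, Pole4, Orc4, Orc6, Tipin and Pcna. The median log2 fold change of the members was -0.31, against 0.00 for all tested genes, and 48 of 50 were below 0, against 50.2%, with 2 above 0, against 49.8%. Since VO libraries stand on both sides of the 2 comparisons, a high VO library moves both folds, and these values are no independent evidence on the members that rose in VO.

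The largest difference was that of Rfc4, at 6.84, 3.59 and 7.999 FPKM in CsA 1 to 3 and 13.1, 14.01 and 13.8 FPKM in VO 1 to 3 (log2 -1.09 ± 0.239, limma adjusted p = 0.204). The groups did not overlap. Pole4 was at 17.1, 10.3 and 17.9 FPKM in CsA and 28.04, 25.7 and 27.6 FPKM in VO (-0.84 ± 0.242, adjusted p = 0.214), and Tipin at 9.64, 6.49 and 8.97 FPKM in CsA and 11.3, 16.3 and 14.4 FPKM in VO (-0.68 ± 0.214, adjusted p = 0.219). Orc4 was at 6.05, 4.14 and 4.57 FPKM in CsA and 10.3, 8.701 and 6.67 FPKM in VO (-0.69 ± 0.195, adjusted p = 0.211), and Orc6 at 3.97, 4.65 and 5.55 FPKM in CsA and 5.77, 9.73 and 8.69 FPKM in VO (-0.65 ± 0.187, adjusted p = 0.215). Of the 50 tested members, these 5 and Orc5 (6 of 50, 12%) had every CsA library below every VO library, against 10.3% of all tested genes.

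The other tested members overlapped between CsA and VO. Pcna was at 24.03, 15.1 and 35.3 FPKM in CsA and 34.4, 49.4 and 33.6 FPKM in VO (log2 -0.69 ± 0.299, limma adjusted p = 0.293). Mcm3 was at 4.94, 1.75 and 7.88 FPKM in CsA and 7.12, 12.1 and 6.15 FPKM in VO (-0.80 ± 0.424, adjusted p = 0.367), and Mcm5 at 3.07, 1.07 and 6.85 FPKM in CsA and 3.90, 8.58 and 4.56 FPKM in VO. Tyms was at 1.21, 0.358 and 2.01 FPKM in CsA and 1.45, 2.65 and 2.21 FPKM in VO (-0.56 ± 0.28, adjusted p = 0.346), and Rrm2 at 9.83, 2.89 and 16.3 FPKM in CsA and 10.96, 18.6 and 7.26 FPKM in VO. Pold2 and Rfc3 were the members above 0, at 0.20 ± 0.18 and 0.01 ± 0.229. Atrial markers summed to 28.6 to 182 FPKM in CsA and 25.9 to 42.3 FPKM in VO, and erythroid markers to 667 to 1041 FPKM in CsA and 593.0 to 2041 FPKM in VO. Of the 9 tested smooth muscle and pericyte markers 8 were above 0 in CsA against VO, with a median of 0.40, and their sums did not overlap (790.1 to 871.5 FPKM in CsA and 620.9 to 753.4 FPKM in VO). Of 12 ventricular markers 10 were above 0, with a median of 0.27 and sums of 14776 to 15494 FPKM in CsA and 10692 to 18165 FPKM in VO. None of these markers passed the test, and their part in the members' values was not tested. Without CsA 2 the median of the members was -0.09, and without VO 2 it was -0.17. Without CsA 3 it was -0.51.

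The comparison of CsA with Sham asked how far drug-treated overloaded ventricles stood from controls. In limma 0 of 50 tested members passed, against 0.0% of all tested genes, and voom gave 0. At an unadjusted p under 0.05, 1 member was higher, against 0.594% of all tested genes, and 0 were lower, against 0.89%. The median log2 fold change was 0.21, with 48 of 50 members above 0, against 50.3% of all tested genes, and 2 below 0, against 49.7%. For 1 member, Orc5, every CsA library exceeded every Sham library, against 4.8% of all tested genes. The highest fold was that of Prim1, at 2.10, 0.732 and 3.15 FPKM in CsA and 0.673, 1.41 and 0.379 FPKM in Sham (0.67 ± 0.314), and the lowest that of Pold2 (-0.26 ± 0.18). Prim1 overlapped between the groups through CsA 2. Rpa3 was the 1 member at an unadjusted p under 0.05, at 12.5, 7.83 and 13.6 FPKM in CsA and 7.06, 7.85 and 7.404 FPKM in Sham (0.51 ± 0.208). Without the libraries high in Myl7 the median of the members turned to -0.16, with 41 of 50 below 0. Only Sham 2, the highest Sham library for most members, was then left in Sham.

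The spread within groups was shared by most members. In the CsA group, CsA 2 was the lowest library for 43 of 50 tested members and the highest for 0, and CsA 3 the highest for 42 and the lowest for 0. In Sham, Sham 2 was the highest for 44 and Sham 3 the lowest for 30. In VO, VO 2 was the highest for 34 and VO 1 the lowest for 33. VO 3 was split by gene. It was the highest VO library for 13 members, among them Gmnn, Dut, Pole3, Rpa2, Rnaseh2a and Rnaseh2b. It was the lowest for 15, among them Mcm2, Mcm3, Mcm4, Pcna, Rrm1 and Rrm2. Gmnn was at 27.5 FPKM in VO 3, against 9.16 to 17.6 FPKM in the other 8 libraries, while Mcm4 was at 4.23 FPKM there, within the Sham range of 3.46 to 6.41 FPKM. VO 3 is also the library with the low mitochondrial share and high Hbb-bs, whose part in this split was not tested.

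Other genes of the same pathway, from lists that hold no member, were compared in VO against Sham as well. The counts below stand against 2.04% of all tested genes called higher and 2.72% called lower. Of 29 tested replication factors, 1 rose and 1 fell, with a median log2 fold change of 0.40. Donson, a fork protein, was at 3.31, 3.17 and 3.35 FPKM in VO and 1.14, 1.91 and 1.45 FPKM in Sham (log2 0.79 ± 0.19, limma adjusted p = 0.048). Pold4, the smallest subunit of polymerase delta, fell, at 1.9997, 2.30 and 3.57 FPKM in VO and 6.55, 4.74 and 5.60 FPKM in Sham (-0.89 ± 0.196, adjusted p = 0.0408). Pold4 and Pold2 both gave folds below 0 and the other polymerase delta subunits Pold1 and Pold3 gave 0.20 and 0.33. Of 32 nucleotide synthesis genes, 3 rose, with a median of 0.34: the UMP-CMP kinase Cmpk1 (0.90 ± 0.158), the GMP synthase Gmps (0.69 ± 0.164) and the adenylosuccinate synthase Adss (0.72 ± 0.125), at limma adjusted p of 0.0382 to 0.0457. Of 24 regulators of S-phase entry, 1 rose, with a median of 0.37. That was Slbp, the histone mRNA binding protein, at 5.92, 7.503 and 6.28 FPKM in VO and 2.93, 3.46 and 2.71 FPKM in Sham (0.91 ± 0.202, adjusted p = 0.0408). Cyclin E2, Ccne2, had 1.06 ± 0.341 and did not pass (adjusted p = 0.0843). In CsA against VO the 3 lists had medians of -0.23, -0.24 and -0.30 with 0 members past the test, and Pold4 was at 0.93 ± 0.196 (adjusted p = 0.204).

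In all, 4 members were too low to test. Orc1, the largest origin recognition subunit, was at 0.169, 0.186 and 0.482 FPKM in CsA, 0.559, 0.624 and 0.484 FPKM in VO and 0.138, 0.31 and 0.222 FPKM in Sham, from 7 to 31 fragments per library. Mcm10, which helps activate the helicase, averaged 0.425 ± 0.311 FPKM in CsA, 0.603 ± 0.265 FPKM in VO and 0.188 ± 0.0887 FPKM across Sham (SD, n = 3). Chaf1a averaged 0.51 ± 0.269 FPKM in CsA, 0.589 ± 0.288 FPKM in VO and 0.349 ± 0.11 FPKM in Sham. Fen1, the flap endonuclease of the lagging strand, had 0 to 5 fragments per library. In the GENCODE M21 annotation 2039 exonic bases of Fen1, whose length in the table is 2422, and 4648 of Chaf1a, whose length is 8854, also lie in exons of genes on the other strand, and what this does to their FPKM was not tested. Ubxn6, which overlaps Chaf1a, fell in VO against Sham (log2 -1.04 ± 0.196, limma adjusted p = 0.0382). Gins2 shares 2758 of 4097 exonic bases with Gse1, and Gse1 fell as well (-0.86 ± 0.207, adjusted p = 0.0472). Altogether 21 of the 54 members share exonic bases with another gene.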

How the data were processed

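The authors deposited 1 table of FPKM per gene and library. Per the submitters' processing notes, which state no roles, the tools were featureCounts 1.5.0-p3, HISAT2 2.0.5, DESeq2 1.20.0, StringTie 1.3.3b and GATK 3.7, and the builds GRCm38 and mm10. The annotation release and the use of strand are not given in the sources used here. Gene coordinates are those of the deposited table, and 53 of 54 members had the same ones in GENCODE M21, from which GC content was taken.

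Members were matched by symbol. The 13477 genes whose mean over 9 libraries reached 0.5 FPKM were fitted as log2(FPKM + 1) in limma 3.58.1 under R 4.3.3, with all 3 groups in 1 fit, a mean-variance trend, no covariate and Benjamini-Hochberg adjustment over all tested genes. Fold changes on this scale understate the change of low genes. Fragments were recovered from FPKM times gene length: 100% of low values lay no more than 0.1 from a whole number. They cover counting error only. For the GC correction, deviations from gene means were regressed on GC by loess (span 0.3, degree 1) within a library and the curve subtracted. The fit and correction were run on simulated data as a check of the code only. Noise there was independent between genes, without the spread shared by most members within a library.

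Full values are given for members past the test, for the smallest p of each role group in VO against Sham and in CsA against VO, for the highest and lowest folds and for 10 fixed genes; a few further members are named beside them, chosen after their values were seen. The members, lists and rule were chosen with earlier results of these data known. No paired fit is used in the main results. Deviations of same-numbered libraries correlated between -0.40 and 0.24, and those of differently numbered libraries of different groups between -0.19 and 0.27. This check found no pairing by number, but with so few libraries it cannot exclude one. Plots used matplotlib 3.10.9 in Python 3.11.15.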

Additional observations from a re-analysis of the deposited data

How the results depend on the processing

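Alternatives were pseudocounts, filters, scalings, variance settings, library weights, only the groups compared, a replicate block, a GC correction, voom, and libraries left out. The scaling by median ratios to gene means had factors of 0.994 to 1.011, so it changed the FPKM values little. In VO against Sham the count of members past the test was 5. It was 0 with no filter, with only the groups compared, with the replicate block, with the GC correction, with both of these, and without the libraries high in Myl7, and 0 with the GC correction and without VO 3, a setting chosen after seeing the data. Leaving out a library gave 0 to 7. The other settings gave 4 to 7. The count over all tested genes was 642; it was 0 with no filter, with only the groups compared and with the GC correction, 1 with the replicate block, 1011 with voom, 3 without the libraries high in Myl7, 14 with the GC correction and without VO 3, and 0 to 2032 with a library left out. The members' median log2 fold change was 0.55. It was 0.25 without the libraries high in Myl7, and 0.39 to 0.68 with a library left out. With voom it was 0.87, against 0.08 for all tested genes. Voom fits log2 fragments without the 1 added to FPKM, so 0.87 and 0.55 are on different scales. In CsA against VO and CsA against Sham 0 members passed in all 26 alternatives. The medians there were -0.51 to -0.09 and 0.05 to 0.42 with a library left out, and -0.16 in CsA against Sham without the libraries high in Myl7. The replicate block is given because the labels number the libraries, although the check did not find the numbers to pair them. The cause of these changes was not tested. The planned quasi-likelihood test on recovered fragments was not run. Fragments per library limit Fen1 and Orc1 most.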

Other observations

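Gins4 stood apart from the other subunits of the GINS complex in level. It was at a mean of 11.03 ± 0.159 FPKM in CsA, 11.5 ± 1.56 FPKM in VO and 9.69 ± 1.95 FPKM across Sham (SD, n = 3), while Gins1, Gins2 and Gins3 averaged 0.689 to 2.04 FPKM in CsA, 0.984 to 2.30 FPKM in VO and 0.362 to 1.54 FPKM in Sham. Rfc1, the large subunit of the clamp loader, lay close together in all 3 groups, at 5.83 ± 0.32, 6.20 ± 0.866 and 5.70 ± 0.107 FPKM in CsA, VO and Sham.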
